A study of Mus musculus with 14 samples.

Results

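The cluster of miR-362, miR-500 and miR-532 is a group of microRNAs (miRNAs) encoded within Clcn5, the gene of an endosomal chloride/proton antiporter. Its 7 listed mature forms, mmu-miR-362-3p, mmu-miR-362-5p, mmu-miR-500-3p, mmu-miR-501-3p, mmu-miR-532-5p, mmu-miR-532-3p and mmu-miR-188-5p, were all present among the 1247 mouse miRNAs of the array. The cluster was picked from measured values, because miR-362-3p was lower after 8 Gy in bone marrow and miR-500-3p differed with amifostine; those contrasts are therefore described without a test. The tissue difference, irradiation of hypothalamus, CBLB502 and nilestriol are other contrasts and were tested. They use some of the same bone marrow arrays, including those in which the cluster was picked, so these p-values are not fully independent of the choice.

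The data are 14 Agilent one-colour miRNA arrays of male C57BL/6 mice aged 6 to 8 weeks, 10 of bone marrow and 4 of hypothalamus, taken 12 h after 0 or 8 Gy of gamma radiation. Each array was hybridised with RNA pooled from 3 mice, and each combination of tissue, pretreatment and dose had 1 array. Bone marrow came from 5 arms, each at 0 and 8 Gy: phosphate-buffered saline (PBS) given intraperitoneally (i.p.), PBS given intragastrically (i.g.), amifostine (10 mg/kg, i.p.) or CBLB502 (0.2 mg/kg, i.p.), each injected 0.5 h ahead of the exposure, and nilestriol (150 mg/kg, i.g.), given 48 h ahead. Hypothalamus came from the PBS i.p. and amifostine arms. Amifostine is a thiol radioprotector, CBLB502 an agonist of Toll-like receptor 5 made from bacterial flagellin, and nilestriol a long-acting oestrogen. No condition had a second array, so standard errors and SDs over arrays or arms measure the spread between pools across conditions, and spot errors measure the noise within an array.

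A miRNA gene is transcribed as part of a longer RNA, from which a hairpin is cut; Dicer then releases a duplex of a 5p and a 3p arm, and usually 1 arm is kept in Argonaute while the other is degraded. Bases 2 to 8 of the kept arm, the seed, pair with target messenger RNAs. Hairpins that lie in the same host gene can come from the same transcript. miR-188 has been described in bone marrow stromal cells as a regulator of the choice between bone and fat formation.

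RefSeq (GRCm38.p6) places the 5 hairpins on the minus strand at chrX:7237683-7248497, a span of 10815 bp inside Clcn5 (chrX:7153810-7319358, minus strand). In the direction of transcription, Mir188 begins 441 bp after the start of Mir532, Mir362 after 6451 bp, Mir501 after 7146 bp and Mir500 after 10723 bp. Mir532 and Mir188 thus form one close group, Mir362 and Mir501 another, and Mir500 stands apart.

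**Figure D1:**
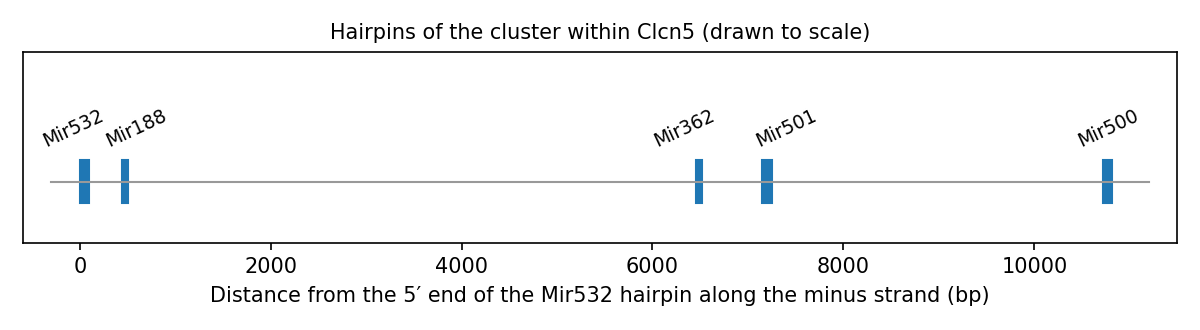
Hairpins of the cluster, drawn to scale; the horizontal axis is the distance in bp from the 5′ end of Mir532 along the minus strand. Mir532 and Mir188 lie within 441 bp of each other, and Mir362, Mir501 and Mir500 start 6451, 7146 and 10723 bp from it.

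The RefSeq table held the mature sequences of 6 of the 7 members. They are shown 5′ to 3′ with the seed in capitals, because the seeds sort the cluster into families and show which members an array probe must tell apart.
mmu-miR-362-3p: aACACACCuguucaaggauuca
mmu-miR-362-5p: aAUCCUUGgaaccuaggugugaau
mmu-miR-500-3p: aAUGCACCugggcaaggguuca
mmu-miR-501-3p: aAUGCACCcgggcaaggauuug
mmu-miR-532-3p: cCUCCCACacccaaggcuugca
mmu-miR-188-5p: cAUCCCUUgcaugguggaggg
mmu-miR-500-3p (chrX:7237695-7237716) and mmu-miR-501-3p (chrX:7241270-7241291) have the same seed and are identical at 18 of 22 positions; counted from the 5′ end, miR-501-3p differs from miR-500-3p by U9C, G18A, C21U and A22G. Outside the cluster, mmu-miR-329-3p shares the seed of mmu-miR-362-3p (chrX:7241984-7242005); it was detected on 0 of 10 bone marrow and 4 of 4 hypothalamus arrays. The seed of mmu-miR-362-5p (chrX:7242019-7242042) also occurs in mmu-miR-500-5p, a further arm of the cluster. In the RefSeq table, mmu-miR-532-3p (chrX:7248419-7248440) shared its seed with no other miRNA, and mmu-miR-188-5p (chrX:7248031-7248051) shared its seed with mmu-miR-7061-3p, which the array does not carry.

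The array measures each miRNA by short DNA probes complementary to its 3′ end, so the near-identical pair can be told apart only by differences within that stretch. The longest probes of the pair are shown 5′ to 3′ with the bases opposite the differing positions in capitals.
mmu-miR-500-3p probe: TGaaCccttgcccAgg
mmu-miR-501-3p probe: CAaaTccttgcccGg
All 4 differing bases lie under these probes, but the 12-base and 13-base probes of miR-501-3p do not reach position 9. Whether the probes of either miRNA also bind the other was not tested. Signals are fluorescence intensities; each was scaled by its array's upper quartile, taken among miRNAs that all compared arrays detected, raised to a floor where lower, and put on the log2 scale. Such a log2 value ranks the arrays for 1 miRNA and does not rank different miRNAs, whose probes differ.

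For 4 of the members signals lay above the floor on every array, and the other 3 were dim. miR-188-5p read 230.4 to 543.1 intensity units in bone marrow and 146.4 to 349.7 in hypothalamus. miR-500-3p read 58.1 to 108.9 in bone marrow and 190.4 to 227.9 in hypothalamus, miR-532-5p 24.1 to 45.9 and 100.8 to 108.5, and miR-362-3p 14.1 to 47.2 and 45.0 to 54.1. miR-532-3p read 24.6 to 26.3 units in hypothalamus, against 3.14 to 8.75 in bone marrow, where 8 of 10 arrays lay at the floor. miR-362-5p read 3.45 to 8.62 units in bone marrow and 5.11 to 6.31 in hypothalamus; it was called detected on all 14 arrays but lay at the floor on 8 of 10 and 4 of 4. miR-501-3p was detected on 1 of 10 bone marrow arrays, CBLB502 at 8 Gy with 4.66 units. In hypothalamus it was detected on 4 of 4 arrays with 1.97 to 3.23 units. By the mean of its probes it lay at the floor on all of these arrays. The further arms carried by the array, miR-500-5p, miR-501-5p and miR-188-3p, were detected on 0 of 14 arrays.

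Over the series as a whole, the number of miRNAs detected per array ran from 332 to 403 in bone marrow and from 478 to 582 in hypothalamus. Of 5 bone marrow markers, among them the myeloid miR-223-3p, 4 were higher on every bone marrow array than on any hypothalamus array, and the lymphoid miR-150-5p overlapped (141 to 390 and 205 to 239 units); their summed scaled level was 98.0 to 348 in bone marrow and 2.30 to 3.21 in hypothalamus. Of 5 neural markers, among them miR-124-3p, 4 were detected on 0 of 10 bone marrow arrays, and miR-128-3p on all 10 at 57.8 to 129 units, against 6110 to 7820 in hypothalamus; their summed scaled level was 0.169 to 0.444 and 45.3 to 70.9. The arrays lay on 3 slides: slide 1 held bone marrow PBS and CBLB502 and hypothalamus PBS, slide 2 bone marrow amifostine and nilestriol, and slide 3 hypothalamus amifostine. Amifostine in either tissue and nilestriol therefore cannot be told apart from the slide.

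In bone marrow, miR-362-3p was lower at 8 Gy than at 0 Gy in all 5 arms, miR-532-5p in 4 arms, and miR-500-3p and miR-188-5p moved in different directions from arm to arm. The log2 level of miR-362-3p at 0 Gy was -2.78 in PBS i.p., -2.76 in PBS i.g., -3.18 after amifostine, -3.24 after CBLB502 and -3.42 after nilestriol. At 8 Gy it was -3.44, -3.54, -3.81, -4.28 and -3.73 in the same order. The 5 irradiated arrays all lay below the 5 unirradiated ones, but narrowly: the lowest array at 0 Gy, nilestriol, and the highest at 8 Gy, PBS i.p., nearly met. By the brightest probe alone the doses overlapped, with nilestriol at 0 Gy at -3.63 and PBS i.g. and PBS i.p. at 8 Gy at -3.57 and -3.59. The difference of 8 minus 0 Gy was -0.66 in PBS i.p., -0.78 in PBS i.g., -0.63 after amifostine, -1.04 after CBLB502 and -0.31 after nilestriol, with a mean of -0.69 (SD 0.27, n = 5 arms), or 1.61-fold lower. Of 371 miRNAs tested in bone marrow, 3.50% had all 5 irradiated arrays below all 5 unirradiated ones, and 11.1% were lower in all 5 arms; miR-362-3p belongs to both counts by the way the cluster was picked, so nothing is read from them.

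Both probes of miR-362-3p gave the same direction in every arm. Its 19-base probe gave -0.70 in PBS i.p., -0.80 in PBS i.g., -0.72 after amifostine, -0.99 after CBLB502 and -0.47 after nilestriol, and its 20-base probe gave -0.63, -0.77, -0.57, -1.08 and -0.19. The standard error of each of these differences over the repeated spots of an array was 0.037 to 0.103. The gap between nilestriol and the other arms exceeded these errors for both probes. Such a gap carries the spot errors of both arms, however, and it was narrower for the 19-base probe. Whether the gap exceeds the spread between mice cannot be told with 1 pool per arm and dose.

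miR-532-5p, from the hairpin at the 5′ end of the cluster, was lower at 8 Gy by a smaller amount. Its log2 level at 0 Gy was -2.66 in PBS i.p., -2.80 in PBS i.g., -3.08 after amifostine, -3.22 after CBLB502 and -3.37 after nilestriol, and at 8 Gy -2.96, -3.23, -3.26, -3.51 and -3.25. The differences were -0.31, -0.43, -0.17, -0.29 and 0.12, with a mean of -0.22 (SD 0.21, n = 5 arms), and the 2 doses overlapped. Nilestriol was the exception, with its irradiated array above its unirradiated one.

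By scaled signal, miR-500-3p was lower at 8 Gy in both vehicle arms and higher in the amifostine arm. Before scaling, its brightest probe read 144.1 units at 0 Gy and 139.2 at 8 Gy with amifostine, so by this probe the rise appeared only after scaling. In PBS i.p. that probe read 107.7 and 81.93 units, and in PBS i.g. 130 and 98.22. Its log2 level at 0 Gy was -1.60 in PBS i.p., -1.78 in PBS i.g., -1.63 after amifostine, -1.85 after CBLB502 and -2.17 after nilestriol, and at 8 Gy -2.23, -2.31, -1.09, -1.90 and -2.07. The 8 minus 0 Gy difference was -0.63 in PBS i.p. and -0.53 in PBS i.g., against 0.54 after amifostine, -0.05 after CBLB502 and 0.10 after nilestriol, where its 15-base and 16-base probes differed in sign (-0.16 and 0.20). Over the 5 arms its mean was -0.11 (SD 0.48), so the sign of the mean rests on the vehicle arms. The highest array was the irradiated amifostine pool and the lowest the irradiated PBS i.g. pool.

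miR-188-5p showed no common direction. Its log2 level at 0 Gy was -0.03 in PBS i.p., 0.10 in PBS i.g., 0.60 after amifostine, 0.42 after CBLB502 and 0.72 after nilestriol, and at 8 Gy 0.06, 0.17, 0.16, 0.72 and 0.37. The differences were 0.09, 0.07, -0.44, 0.30 and -0.35, with a mean of -0.07 (SD 0.32, n = 5 arms). Its neighbour in the genome, miR-532-5p, differed in sign from it in every arm but amifostine. Over all 371 miRNAs tested the median difference was 0.09, and over the 30 other chromosome X miRNAs tested it was 0.07.

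**Figure D2:**
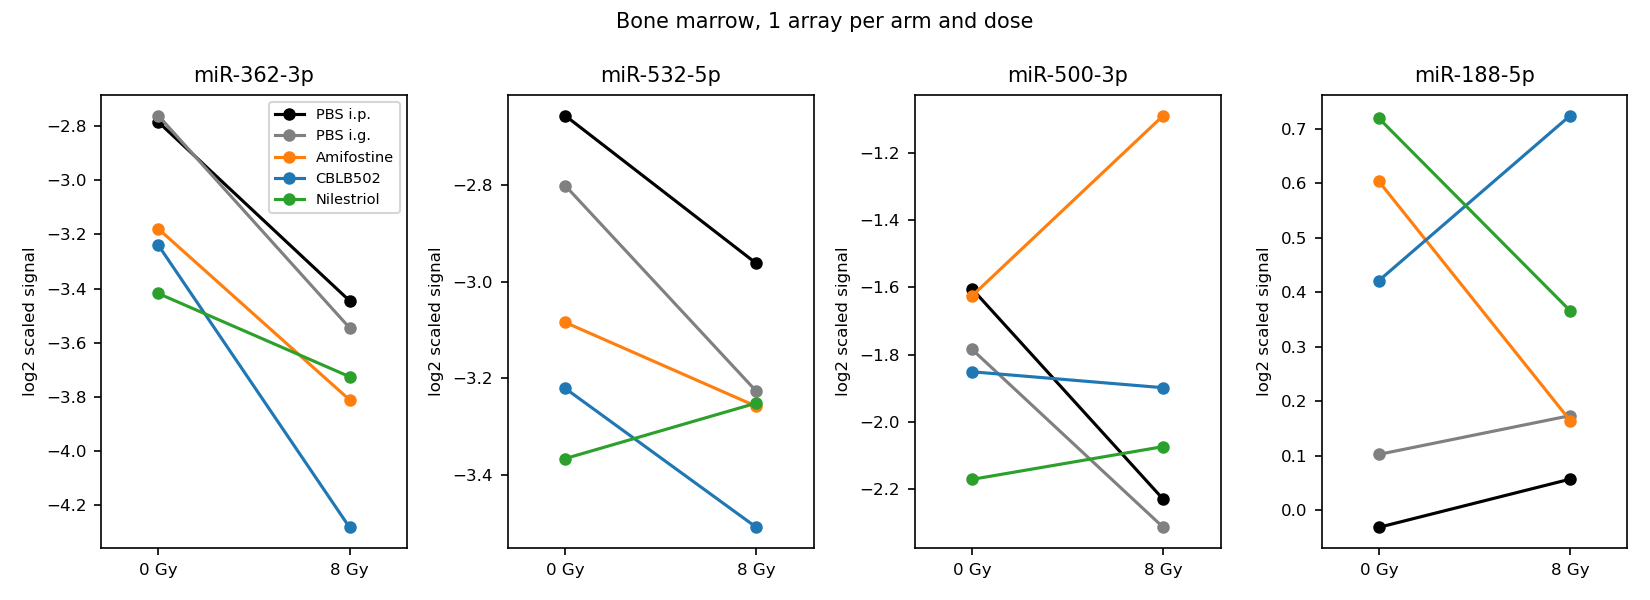
Log2 scaled signal (vertical axis, 1 scale per panel) of 4 cluster members in bone marrow at 0 and 8 Gy (horizontal axis); each point is 1 array of 3 pooled mice and each line 1 arm. miR-362-3p lies between -2.76 and -3.42 at 0 Gy and between -3.44 and -4.28 at 8 Gy, while the amifostine line of miR-500-3p runs upward to -1.09.

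The dim arms were followed by their brightest probe alone, a choice made after the data had been seen. On this scale miR-532-3p went from -3.55 to -3.99 in PBS i.p., from -3.72 to -4.02 in PBS i.g., from -4.08 to -4.18 with amifostine, from -4.13 to the floor of -4.91 with CBLB502, and from -4.52 to -4.33 with nilestriol. The nilestriol arm was thus the exception for both arms of the Mir532 hairpin. miR-362-5p read -4.14 and -4.32 in PBS i.p., -3.94 and -4.63 in PBS i.g., -4.72 and -4.60 with amifostine, -4.78 and the floor with CBLB502, and -4.72 and -4.58 with nilestriol. It was lower at 8 Gy in 3 arms, and these readings lie within 1 log2 unit of the floor. miR-501-3p stayed at the floor on all 10 bone marrow arrays by its brightest probe as well. In hypothalamus that probe lay above the floor on 3 of 4 arrays. It read -4.62 and -4.29 in PBS at 0 and 8 Gy, and -4.49 and the floor of -4.93 with amifostine.

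Across the 10 bone marrow arrays, miR-362-3p and miR-532-5p varied together, with Pearson r = 0.86 (0.92 within doses). miR-188-5p ran opposite to both, with r = -0.48 against miR-362-3p (-0.93 within doses) and -0.76 against miR-532-5p (-0.91 within doses). miR-500-3p followed none of them (r = 0.09, 0.18 and -0.16 against miR-362-3p, miR-532-5p and miR-188-5p). These correlations describe 10 pools that share slides and a scaling step, and they carry no test.

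The pattern of miR-362-3p over the 10 arrays was most like those of miR-3069-3p (r = 0.98), miR-19b-3p (r = 0.96) and miR-1949 (r = 0.95) among 290 miRNAs detected on all 10. miR-532-5p was most like miR-27b-3p (r = 0.98), miR-23b-3p (r = 0.97) and miR-181c-5p (r = 0.96). miR-188-5p was most like miR-6386 (r = 0.95), miR-6385 (r = 0.94) and miR-762 (r = 0.94). miR-500-3p had no close likeness; its highest values were r = 0.66 with miR-30c-1-3p, 0.64 with miR-466f-3p and 0.64 with miR-669p-3p.

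Against vehicle, miR-362-3p was lower with CBLB502 by 0.63 on the log2 scale (difference -0.63 ± 0.16 SE, 95% interval -0.995 to -0.26, 2 against 4 arrays; limma adjusted p = 0.0445), or 1.54-fold lower. With CBLB502 it lay below both PBS arrays of the same dose at 0 and at 8 Gy, by 0.46 and 0.84 relative to PBS i.p. on the log2 scale. It was the only member called, 1 of the 6 members tested, where 12.1% of the 371 miRNAs tested passed.

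The call passed in 4 of 18 alternative analyses, among them the one restricted to slide 1, which holds every CBLB502 and PBS array (difference -0.61, adjusted p = 0.0333), while its sign held in 18 of 18. Leaving out any 1 of the 6 PBS and CBLB502 arrays took the adjusted p to between 0.0622 and 0.343, the last without the irradiated CBLB502 array, where the difference was -0.40. That array also belongs to the fall at 8 Gy for which miR-362-3p was picked, so the call is not independent of the choice. With PBS i.p. alone as control the difference was -0.65 and the adjusted p 0.145.

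The other members did not pass. miR-532-5p was -0.45 ± 0.15 (95% interval -0.81 to -0.10, limma adjusted p = 0.0745), and its CBLB502 arrays also lay below both PBS arrays at each dose. miR-188-5p was 0.50 ± 0.18 (0.08 to 0.92, adjusted p = 0.0895), above both PBS arrays at each dose. miR-500-3p was 0.11 ± 0.24 (-0.46 to 0.68, adjusted p = 0.725). Lying beyond both PBS arrays of the dose, the same way at 0 and 8 Gy, was common with CBLB502: 63.1% of the miRNAs tested did so. Restricted to slide 1, miR-532-5p (-0.44, adjusted p = 0.0488) and miR-188-5p (0.51, adjusted p = 0.0371) also passed, as did 107 miRNAs in all against 45 in the full fit. By their brightest probes miR-532-3p was -0.70 ± 0.20 (adjusted p = 0.0601) and miR-362-5p -0.59 ± 0.19 (adjusted p = 0.0741), both with the irradiated CBLB502 array at the floor.

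The nilestriol differences were measured against the same 4 PBS arrays as those of CBLB502 and are not independent of them. Of the 6 members tested 0 passed with nilestriol, as did 0% of the 371 miRNAs by limma, 95 of which had an unadjusted p under 0.05. miR-362-3p was -0.44 ± 0.16 (95% interval -0.81 to -0.07, adjusted p = 0.179), miR-532-5p -0.40 ± 0.15 (-0.75 to -0.04, adjusted p = 0.179), miR-188-5p 0.47 ± 0.18 (0.05 to 0.89, adjusted p = 0.179) and miR-500-3p -0.14 ± 0.24 (-0.71 to 0.43, adjusted p = 0.701). The gap to PBS i.g. was wider without irradiation: for miR-362-3p -0.66 at 0 Gy and -0.18 at 8 Gy, and for miR-532-5p -0.57 and -0.02. miR-362-3p, miR-532-5p and miR-188-5p each lay beyond both PBS arrays the same way at 0 and 8 Gy, as 42.9% of the miRNAs tested did. Without the irradiated nilestriol array, miR-362-3p (-0.67, adjusted p = 0.038) and miR-532-5p (-0.61, adjusted p = 0.0468) passed, with 95 miRNAs in all.

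With amifostine in bone marrow, the contrast used in choosing the cluster, miR-500-3p was 0.63 ± 0.24 above vehicle over both doses, also against the same PBS arrays. Under 10 alternative analyses this difference ran from 0.34 to 0.74 and kept its sign in 10. The difference lay in the irradiated pool: relative to PBS i.p. it was -0.02 at 0 Gy and 1.14 at 8 Gy. Its 15-base probe gave 1.43 and its 16-base probe 0.9995 at 8 Gy, and -0.16 and 0.04 at 0 Gy, so the probes agreed in sign at 8 Gy and differed in size by more than their spot errors of 0.042 and 0.027. miR-362-3p was -0.36 ± 0.16, miR-532-5p -0.26 ± 0.15 and miR-188-5p 0.31 ± 0.18. miR-362-3p and miR-532-5p lay below both PBS arrays at each dose, where 39.1% of the miRNAs tested lay beyond both the same way.

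**Figure D3:**
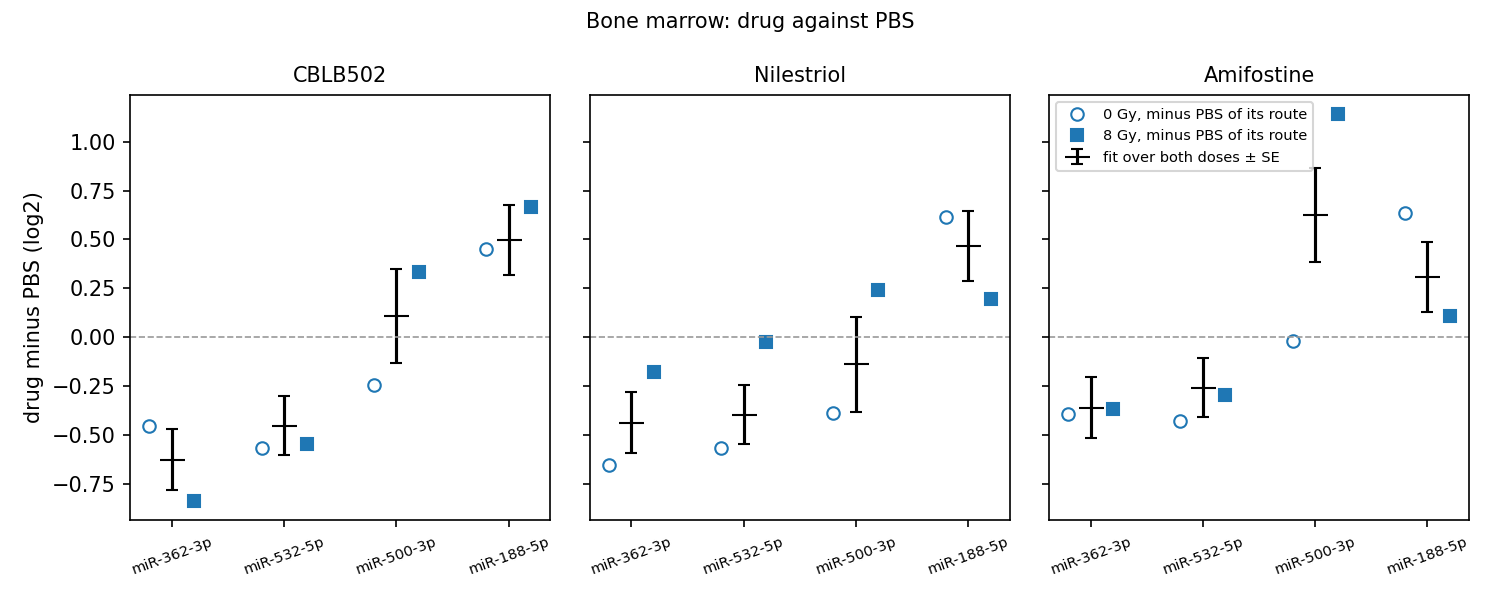
Log2 difference from PBS (vertical axis) of 4 members in bone marrow for each drug; open circles (0 Gy) and squares (8 Gy) are 1 drug array minus the PBS array of its route, and black bars the fit over both doses ± SE. miR-362-3p and miR-532-5p lie below 0 in every panel, and miR-500-3p with amifostine separates into -0.02 at 0 Gy and 1.14 at 8 Gy.

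The size of these differences can be set beside the 2 vehicle routes. PBS i.g. minus PBS i.p. was 0.02 at 0 Gy and -0.10 at 8 Gy for miR-362-3p, -0.18 and -0.08 for miR-500-3p, -0.15 and -0.27 for miR-532-5p, and 0.13 and 0.12 for miR-188-5p. The base composition of the probes moved with the drug differences: across 371 miRNAs, the Spearman correlation of the difference with the probes' content of G and C was 0.43 for CBLB502, 0.47 for nilestriol and 0.39 for amifostine, against -0.05 for irradiation. miR-362-3p and miR-532-5p, with 43.6% and 51.5% G and C in their probes, were lower with the drugs, and miR-188-5p, with 67.4%, was higher. miR-500-3p, with 61.2%, had no common direction (0.11, -0.14 and 0.63 in the same order of drugs). By their brightest probes, miR-532-3p, with 59.3%, was lower with each drug (-0.70, -0.60 and -0.31). So was miR-362-5p, with 43.8% (-0.59, -0.39 and -0.40). The part of base composition in these results was not tested.

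Between the tissues, 3 members passed: miR-532-5p and miR-532-3p were higher and miR-188-5p lower in hypothalamus than in bone marrow, on the 8 arrays of conditions present in both tissues. That is 3 of 7 members, where 56.0% of 530 miRNAs tested passed, 40.2% higher and 15.8% lower in hypothalamus. Among the 7, miR-501-3p lay above the floor on 0 of the 8 arrays and miR-362-5p on 2, so their not passing says little. The direction of the Mir532 arms depended on how the arrays were scaled to each other, as set out below, while that of miR-188-5p did not. In these whole tissues, fewer cells of a type and less miRNA per cell cannot be told apart.

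miR-532-5p in bone marrow was -2.83 in PBS at 0 Gy, -3.02 in PBS at 8 Gy, -3.25 with amifostine at 0 Gy and -3.29 with amifostine at 8 Gy. In hypothalamus it was -2.27, -1.83, -1.84 and -2.39 in the same order. The tissues did not overlap, and the difference was 1.02 ± 0.18 (95% interval 0.55 to 1.49, limma adjusted p = 0.00706), or 2.03-fold higher in hypothalamus.

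miR-532-3p, the other arm of the same hairpin, was -5.22, -5.42, -5.52 and at the floor of -5.61 in bone marrow, and -4.31, -3.82, -3.90 and -4.38 in hypothalamus. The difference was 1.34 ± 0.17 (95% interval 0.89 to 1.79, limma adjusted p = 0.00226), and 1.22 ± 0.23 by the brightest probe. As scaled here, both arms of the hairpin thus differed in the same direction. With quantile normalization their signs differed (-0.10 for miR-532-5p and 0.08 for miR-532-3p).

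miR-188-5p, whose hairpin starts 441 bp after that of Mir532, went the other way. It was -0.21, 0.00, 0.44 and 0.13 in bone marrow and -0.73, -1.16, -1.32 and -0.59 in hypothalamus, again without overlap. The difference was -1.04 ± 0.24 (95% interval -1.68 to -0.40, limma adjusted p = 0.0195), or 2.06-fold lower in hypothalamus. Across the 530 miRNAs tested, the Spearman correlation of the tissue difference with the probes' content of G and C was -0.24. The probes of miR-188-5p are 10 to 13 bases long with 67.4% G and C, while miR-532-3p, with 59.3%, was higher in hypothalamus. The part of base composition in the tissue differences was not tested.

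miR-500-3p was -1.78, -2.29, -1.79 and -1.12 in bone marrow and -1.22, -0.93, -0.87 and -1.21 in hypothalamus, and the irradiated amifostine pool of bone marrow alone reached the hypothalamus range. Its difference was 0.69 ± 0.27 (95% interval -0.02 to 1.39, limma adjusted p = 0.0839), and without the condition of that pool 0.93. That pool carries the amifostine difference for which miR-500-3p was picked, so nothing is read from leaving it out. By the brightest probe of miR-500-3p the tissue difference was 0.73 (adjusted p = 0.0287). The difference passed in 5 of 16 alternatives and changed sign in 3, with values from -0.73 to 1.33. miR-362-3p was -2.96, -3.50, -3.34 and -3.84 in bone marrow and -3.35, -3.02, -2.76 and -3.32 in hypothalamus, with overlap. Its difference was 0.30 ± 0.21 (-0.26 to 0.86, adjusted p = 0.269). By its brightest probe, miR-362-5p was -0.26 ± 0.23 (adjusted p = 0.331), so neither arm of the Mir362 hairpin passed.

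**Figure D4:**
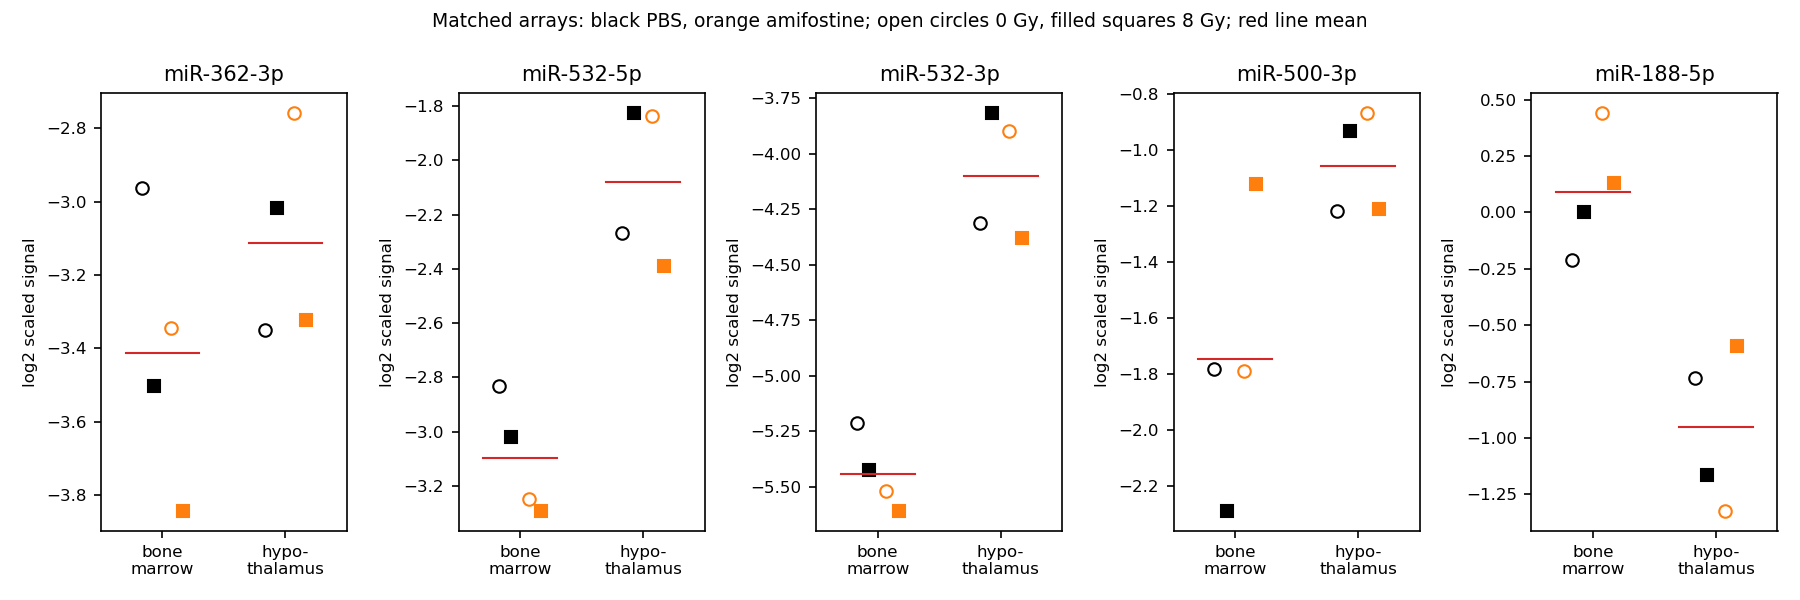
Log2 scaled signal (vertical axis, 1 scale per panel) of 5 members on the 8 arrays of matched conditions; symbols mark pretreatment and dose, and red lines the mean of each tissue. miR-532-5p and miR-532-3p are higher and miR-188-5p lower in hypothalamus with no overlap, whereas in miR-500-3p 1 bone marrow array at -1.12 reaches the hypothalamus range.

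The choice of scaling moved all tissue differences together. The median difference of all miRNAs tested, hypothalamus minus bone marrow, was 0.38 as scaled here, -0.62 when the 75th percentile was taken over all miRNAs, -0.24 with quantile normalization and 0.86 with no scaling. Relative to that median, miR-532-3p was higher by 0.96, 0.57, 0.32 and 0.94 in the same order, and miR-532-5p by 0.64, 0.22, 0.14 and 0.80. miR-188-5p was -1.42, -1.85, -1.62 and -1.26 relative to the median. miR-362-3p was -0.08, -0.50, -0.80 and 0.08 relative to the median, and miR-500-3p 0.31, -0.12, 0.04 and 0.47. The order of the 5 differences was the same under each of these 4 scalings, with miR-532-3p highest and miR-188-5p lowest. Except for quantile normalization this was largely fixed in advance, because a single factor per array moves every member above the floor alike. In the log2 values deposited by the authors the order differed, with miR-532-3p (-1.59) below miR-362-3p (-1.23). In absolute terms miR-532-5p turned to -0.40 and -0.10, and miR-532-3p to -0.04 and 0.08, when scaled over all miRNAs and by quantiles, whereas miR-188-5p was negative under all 16 alternatives.

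**Figure D5:**
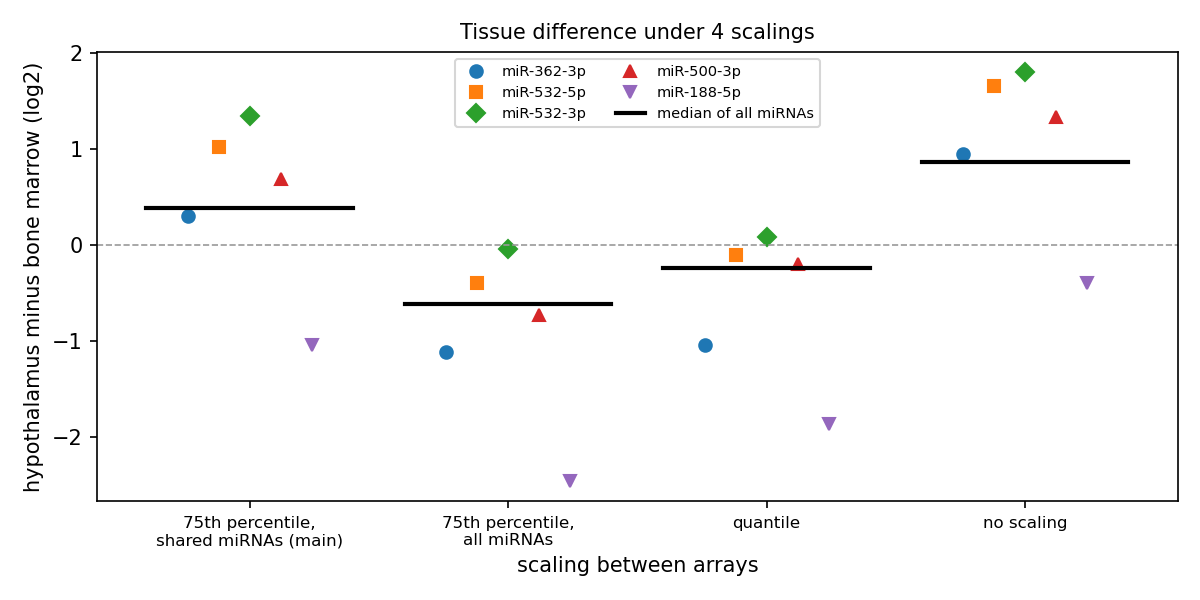
Tissue difference in log2 units (vertical axis) of 5 members under 4 scalings of the arrays (horizontal axis); black lines are the median of all miRNAs tested. The Mir532 arms stay above the median line and miR-188-5p well below it under each scaling, while each member but miR-188-5p lies above 0 under some scalings and below it under others.

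The slides bear on the tissue comparison too. On slide 1 alone, which holds the PBS arrays of both tissues, miR-532-3p differed by 1.11 (adjusted p = 0.0945), miR-532-5p by 0.73 (0.161), miR-188-5p by -0.99 (0.0629) and miR-362-3p by -0.10 (0.858), and 0 members passed by limma on these 4 arrays, where 238 miRNAs did. With the slide as a block on all 8 arrays miR-532-5p was 0.88 (adjusted p = 0.0837) and miR-188-5p -0.84 (adjusted p = 0.157), and 1 member passed, miR-532-3p, where 232 miRNAs did.

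In hypothalamus, 0 of the 7 members passed the threshold for irradiation, and 0% of 544 miRNAs by limma, 0 of which had an unadjusted p under 0.05. miR-362-5p and miR-501-3p lay above the floor on 0 of the 4 arrays, so their not passing says little. The fit has 4 arrays and 1 residual degree of freedom, so its intervals are wide. miR-362-3p was -2.69 and -2.66 in PBS at 0 and 8 Gy and -2.36 and -2.81 with amifostine, a difference of -0.21 ± 0.23 (95% interval -1.21 to 0.78). The mean of -0.69 measured in bone marrow lies within this interval, and the difference between the tissues was not tested. miR-500-3p was -0.13 ± 0.18 (-0.89 to 0.64), miR-532-5p -0.16 ± 0.26 (-1.26 to 0.95) and miR-532-3p -0.09 ± 0.26 (-1.18 to 0.99).

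miR-188-5p was the most variable member in hypothalamus. It was -0.07 in PBS at 0 Gy, -0.81 in PBS at 8 Gy, -0.92 with amifostine at 0 Gy and -0.08 with amifostine at 8 Gy, so the 2 arms moved in opposite directions, by -0.74 and 0.84. Its difference over the 2 arms was 0.05 ± 0.58 (95% interval -2.42 to 2.52). Across the 544 miRNAs of this fit, the Spearman correlation of the irradiation difference with the probes' content of G and C was 0.40; its part in the miR-188-5p values was not tested. Marker lists of other tissues also varied between these pools. Their summed scaled levels were 7.55 to 10.3 for the neighbouring pituitary, 3.03 to 4.66 for choroid plexus and 0.175 to 0.663 for muscle. Of the 3 pituitary markers, miR-7a-5p was highest in PBS at 0 Gy (5107 units, against 3529 to 4117 on the other arrays). It made up most of the pituitary sum, and it was also detected on 10 of 10 bone marrow arrays (30 to 61.5 units). miR-375-3p was detected on all 4 arrays at 8.99 to 17.7 units. miR-200c-3p was detected on both amifostine arrays (45.6 and 8.38 units at 0 and 8 Gy) and on neither PBS array. It was also detected on 10 of 10 bone marrow arrays (20 to 34.1 units), so among these tissues it does not mark pituitary alone. The part of these markers in the miR-188-5p values was not tested.

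Amifostine in hypothalamus left miR-500-3p at -0.02 ± 0.18 relative to PBS (0.08 at 0 Gy and -0.12 at 8 Gy), where the irradiated bone marrow pool had differed by 1.14. miR-362-3p was 0.09 ± 0.23 and miR-532-5p -0.12 ± 0.26. Both amifostine arrays lay on slide 3 and both PBS arrays on slide 1, so the slide and the drug cannot be told apart there either. The difference between the tissues in the amifostine contrast was not tested.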

How the data were processed

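The authors deposited scanner files of spot intensity written by Agilent Feature Extraction (version 10.7.1.1, per the file headers). The spot signals used in the main fits had the background already subtracted. The files also hold raw spot and background intensities, which the normexp alternative used. A table of log2 values was deposited too, whose scaling is not given in the sources used here. The cluster members, lists and tests were chosen with earlier results of these data known.

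Spot signals were averaged per probe without outlier spots, then over the probes of a miRNA. Each array was scaled by the 75th percentile among miRNAs that every array of the fit detected (296 for bone marrow, 471 for hypothalamus, 277 for the matched arrays). Scaled signals were raised to a floor (the arrays' median 5th percentile of detected miRNAs, log2 -5.31, -5.28 and -5.61) and put on the log2 scale. miRNAs detected on at least 50% of the arrays were tested with limma 3.58.1 (R 4.3.3), two-sided, with Benjamini-Hochberg adjustment over all of them at 0.05. Tissue was fitted with the condition as block, hypothalamus irradiation with the drug as covariate, and drugs in bone marrow with the dose as covariate. The alternatives, among them other scalings, filters and background corrections, the scanner software's totals and the authors' table, are given in the closing section. The fits were also run on data simulated from the same models with independent noise. That run cannot show effects of the slide, the scaling or the floor. All members are described; differences are given where a member lay above the floor on over 50% of the arrays. Likeness was the highest Pearson r, 3 miRNAs per member. The number of arrays limits the precision.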

Additional observations from a re-analysis of the deposited data

How the results depend on the processing

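The sign of the tissue difference changed under some settings for 4 members. miR-362-3p turned to -0.16 with normexp background, -1.12 scaled over all miRNAs, -1.04 with quantiles, -1.23 in the authors' value table and -0.10 on slide 1 alone (an alternative added after seeing the data, like the brightest probe). Scaled over all miRNAs, with quantiles and in the authors' table, miR-500-3p was -0.73, -0.20 and -0.19 and miR-532-5p -0.40, -0.10 and -0.115. miR-532-3p was -0.13 with normexp, -0.042 scaled over all miRNAs, -0.30 with scanner software totals and -1.59 in the authors' table; the software totals did not equal the sum of the detected probes for this member on any array. miR-188-5p kept its sign in 16 of 16 alternatives. Members called in the tissue test numbered 1 with normexp (272 miRNAs in all), 1 without a filter (217) and 1 with the slide as block (232), 0 on slide 1 alone (238), and 2 to 4 leaving out each condition (242 to 319), against 3 of 297; among miRNAs detected on every array 4 of 160 were members.

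With CBLB502, members called numbered 2 scaled over all miRNAs (83 miRNAs in all), 2 with quantiles (48) and 3 on slide 1 (107). They numbered 0 with normexp (37), no scaling (0), an offset in place of the floor (68), no filter (0), software totals (12), the authors' table (4), the brightest probe (30) and PBS i.p. alone (0), and 0 to 0 leaving out each array (0 to 43), against 1 of 45. miR-500-3p turned to -0.13, -0.046 and -0.04 scaled over all miRNAs, with quantiles and in the authors' table. With nilestriol, 2 members and 72 miRNAs passed scaled over all miRNAs, 8 miRNAs with normexp, and 0 to 2 members leaving out each array (0 to 95 miRNAs), where miR-500-3p ranged from -0.27 to 0.013. In hypothalamus irradiation miR-500-3p turned to 0.021 with quantiles, 0.046 with software totals and 0.02 in the authors' table, miR-532-5p to 0.019 with software totals and miR-532-3p to 0.0075 without scaling; there the test without a filter says nothing, since most added miRNAs lay at the floor. In bone marrow irradiation miR-362-3p stayed negative in 16 of 16 alternatives, from -0.80 to -0.16, the last with normexp, whose offset of 50 exceeds its signal. The cause of the other changes was not tested.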
